A study of Drosophila melanogaster with 52 samples.

Results

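Loss of the zinc finger protein Spps was set against wild type in Drosophila melanogaster, using brains and imaginal discs from larvae of the third instar. The labels name 4 libraries SppsKO and 3 libraries WT, and both groups were kept at 25 °C. According to the series' design text, SppsKO larvae lacked maternal as well as zygotic Spps, so no product loaded into the egg was left to cover for the missing gene. The sources used here give neither the mutant allele nor the strain of either group. Nor do they tell whether the libraries were dissected or bred separately, so the p-values reflect library-to-library spread that may be technical. Members are the genes with at least 1 FPKM (fragments per kilobase of transcript, scaled to the mapped fragments of a library) in 3 or more of these 7 libraries, which 9514 of 16502 listed genes met. Of the other 6988 genes, 1619 were at 0 in all 7 libraries. The series also holds 3 pho mutant libraries (PhoKO), used once at the end, and 42 ChIP-Seq samples, not analysed here.

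Spps belongs to the Sp/KLF family of DNA-binding factors. In Drosophila it binds Polycomb response elements, the DNA elements through which Polycomb group complexes are brought to chromatin. Polycomb complexes mark histone H3 and hold developmental genes silent, the Hox genes being the classical targets. Imaginal discs are epithelial sacs that form adult wings, legs and eyes, and a dissection of discs and brains can bring along blood cells, muscle, fat body, salivary gland, gut and the ring gland, an endocrine organ attached to the brain.

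The 7 libraries separated by genotype along the leading principal component, which held 49% of the variance. Correlations of log2(FPKM + 1) over tested genes were 0.976 to 0.996 within SppsKO and 0.967 to 0.982 within WT, against 0.95 to 0.974 between the groups. Relative depth, read from the step size of low FPKM values, was 89.6% to 106% of WT 1 in the SppsKO libraries, and 99.0% in WT 2 and 60.0% in WT 3. SppsKO 4 stood apart from the other SppsKO libraries on the next 2 components, and WT 3 from the other WT libraries on the later of them. Markers of discs and brain were present in every library. The summed level of 6 disc epithelium markers was 175 to 184 FPKM in SppsKO and 179.8 to 191 FPKM in WT, and that of 6 neuronal markers was 118 to 147 FPKM in SppsKO and 140.3 to 164 FPKM in WT. Defining markers of germline and testis were low, summing to 0.978 to 1.52 FPKM and 0.715 to 3.12 FPKM over the 7 libraries. Of these markers only nos and dj averaged under 0.1 FPKM.

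Spps transcript stood at 0.877, 1.04, 0.92 and 0.988 FPKM in the SppsKO libraries, against 12.4, 12.9 and 12.2 FPKM in the WT libraries. The SppsKO mean was 7.67% of the WT mean, with no overlap between libraries (p = 0.0286 by an exact permutation test, two-sided, which is as low as 35 arrangements can go). The fitted difference was −2.78 ± 0.07 on the log2(FPKM + 1) scale (SE; limma, Benjamini-Hochberg adjusted p = 3.39e-07). The next tested gene along the chromosome is cav (caravaggio), which encodes HOAP, a protein that caps telomeres. It stood at 7.21, 6.91, 7.17 and 8.35 FPKM in SppsKO, against 19, 17.6 and 23.9 FPKM in WT, and fell to 36.7% of the WT mean (log2 difference −1.33 ± 0.11, limma adjusted p = 2.58e-04). Whether the lower cav level comes with the mutant chromosome or with the loss of Spps cannot be told apart in these libraries. The other 9 of the 10 nearest tested genes were not called, with differences between −0.24 and 0.15.

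**Figure D1:**
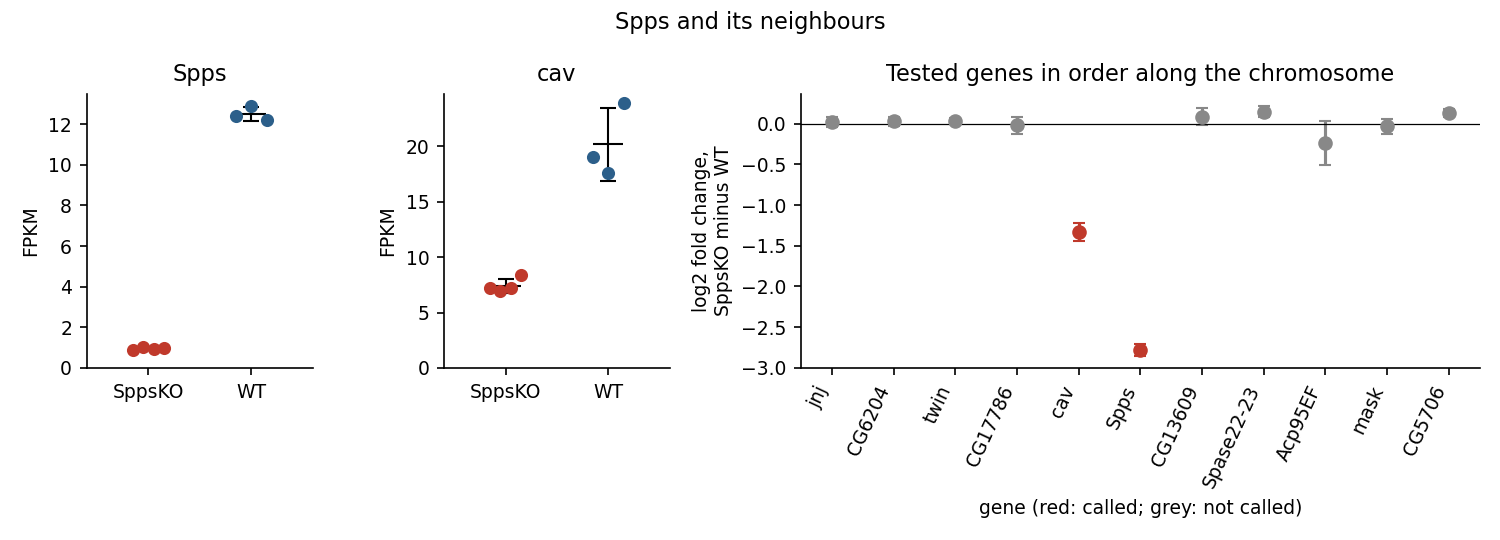
FPKM of Spps and cav in each library (points; bars give mean ± SD, 4 SppsKO and 3 WT libraries) and the log2 fold change ± SE of Spps and the 5 tested genes on either side, in gene order. Spps and cav lie far below 0, and the 9 other genes lie between −0.24 and 0.15.

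Across all tested genes, 734 (7.71%) differed between SppsKO and WT at an adjusted p under 0.05, of which 313 (3.29%) were higher and 421 (4.43%) lower in SppsKO. At an unadjusted p under 0.05 there were 2293. Rises were mostly small, with a median of 0.38 on the log2 scale, against a median of −0.67 for falls. A change of at least 1 was seen in 46 higher and 124 lower genes, and one of at least 3 in 2 higher and 18 lower genes. The lower share of calls was 57.4%, but 37.6% after quantile normalization, which gave 537 higher and 323 lower genes. Leaving out SppsKO 1, 2 or 3 gave 465, 413 or 469 calls, and 366 calls (154 higher and 212 lower) were kept whichever single library was left out. Genes at a mean of 2 to 10 FPKM were called more often (10.8%) than those at 50 FPKM or more (5.51%).

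**Figure D2:**
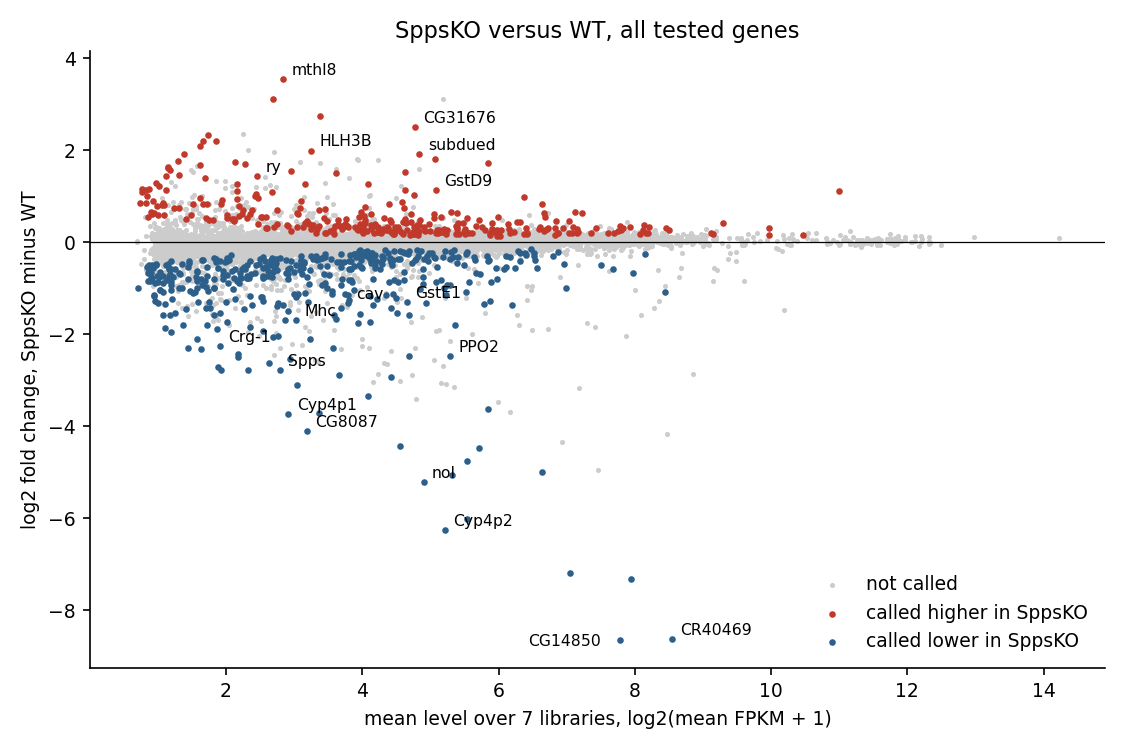
Log2 fold change (SppsKO minus WT) against mean level over the 7 libraries for 9514 tested genes, with called genes in colour. Falls reach −8.64 (CG14850) while the largest rise is 3.55 (mthl8).

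The rises above 1 were held by a mixed group of genes, several of which were close to silent in WT. The gene mthl8, a Methuselah-like G protein-coupled receptor, had 10.7, 11.7, 10.2 and 10.5 FPKM in SppsKO, against 0, 0.00699 and 0 FPKM in WT (log2 difference 3.55 ± 0.08, limma adjusted p = 1.66e-07). CG31676 had 40.1, 39.9, 43.8 and 41.3 FPKM in SppsKO, against 6.63, 6.17 and 6.58 FPKM in WT (2.50 ± 0.05, adjusted p = 1.03e-07). The gene subdued, an anoctamin family chloride channel, had 45.7, 40.9, 44.1 and 32.4 FPKM in SppsKO, against 9.55, 10.6 and 10.0 FPKM in WT (1.91 ± 0.11, adjusted p = 7.84e-05). These 3 genes kept far apart in every library. The gene ry (rosy) encodes xanthine dehydrogenase, an eye pigment enzyme often used as a stock marker. It had 6.86, 6.53, 6.94 and 5.7 FPKM in SppsKO, against 1.72, 1.78 and 1.86 FPKM in WT (1.43 ± 0.08, adjusted p = 5.24e-05), and was the 1 called gene among 19 tested eye colour and stock marker genes. Whether its level goes with the stocks used or with Spps was not tested.

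Other rises started from WT levels under 1 FPKM, so these genes passed the filter through their SppsKO libraries alone. CG3588 had 4.07, 3.42, 5.57 and 3.34 FPKM in SppsKO and was listed at 0 in all 3 WT libraries (limma adjusted p = 8.73e-05). CG18278 averaged 2.82 ± 0.377 FPKM in SppsKO and 0.005 ± 0.00866 FPKM in WT (SD, n = 4 and 3), and CG32640 averaged 4.42 ± 0.455 FPKM in SppsKO and 0.19 ± 0.0558 FPKM in WT. The cytochrome P450 gene Cyp6a17 averaged 3.55 ± 0.413 FPKM in SppsKO and 0.0616 ± 0.0647 FPKM in WT. Of 10 tested chemosensory receptor genes 2 were called higher (20%), the neighbouring sugar receptor genes Gr64a and Gr64b, against 3.29% of all tested genes. The other 169 listed receptor genes were not tested, so the 20% depends on which genes passed the filter. Gr64a had 2.1, 2.72, 2.85 and 2.46 FPKM in SppsKO, against 0.085, 0.0343 and 0 FPKM in WT (log2 difference 1.76 ± 0.11, limma adjusted p = 7.12e-05), and Gr64b averaged 1.4 ± 0.206 FPKM in SppsKO and 0.069 ± 0.0172 FPKM in WT. CG15201 was already expressed in WT, averaging 47.4 ± 9.12 FPKM in SppsKO and 13.1 ± 4.23 FPKM in WT (1.80 ± 0.23, adjusted p = 0.00808).

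Small nuclear and nucleolar RNAs were called at about the share of all tested genes (8.89%, against 7.71%), with 4 higher and 4 lower among 90 tested. Another 224 were not tested, and poly(A) selection and short length make their FPKM uncertain. Single libraries moved the numbers called, to 2 higher without WT 2, SppsKO 2 or SppsKO 4 and to 2 lower without WT 1, WT 3 or SppsKO 1. The small nuclear RNA snRNA:U2:34ABa, which has near-identical copies elsewhere in the genome, averaged 9.4 ± 3.11 FPKM in SppsKO and 0.181 ± 0.314 FPKM in WT (log2 difference 3.12 ± 0.27, limma adjusted p = 5.75e-04). The nucleolar RNA snoRNA:Psi18S-1086 had 6.46, 3.75, 3.07 and 1.99 FPKM in SppsKO and was listed at 0 in WT (adjusted p = 0.00328). For snoRNA:Psi28S-2648 the means were 15.1 ± 4.91 FPKM in SppsKO and 1.74 ± 1.57 FPKM in WT (2.74 ± 0.54, adjusted p = 0.0379). Its call was lost without any 1 of WT 2 and SppsKO 1 to 4, with an adjusted p of up to 0.109. Among the falls, snoRNA:Psi18S-841d and snoRNA:Psi28S-3405b were listed at 0 in all SppsKO libraries and averaged 4 ± 1.18 FPKM and 2.99 ± 1.24 FPKM in WT (adjusted p = 1.45e-04 and 5.73e-04). The RNAs listed at 0 in all libraries of 1 group passed the filter through the other group alone.

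One group of rises lay side by side on the X chromosome. HLH3B, a basic helix-loop-helix transcription factor, had 12.9, 13.5, 12.7 and 13.1 FPKM in SppsKO, against 2.97, 2.19 and 2.46 FPKM in WT (log2 difference 1.99 ± 0.08, limma adjusted p = 7.50e-06). The next tested genes CG2652, per and CG2650 rose with it, by 1.13 ± 0.11, 0.95 ± 0.10 and 0.85 ± 0.12. The clock gene per (period) had 3.18, 3.07, 2.68 and 2.51 FPKM in SppsKO, against 1.16, 0.875 and 0.953 FPKM in WT (adjusted p = 0.00113). CG2652 averaged 1.32 ± 0.188 FPKM in SppsKO and 0.0608 ± 0.0337 FPKM in WT. All 4 genes had every SppsKO library above every WT library, as had 12.4% of tested genes. That is no separate support, because the 4 genes were picked as called higher. CG2652 and CG2650, under 1 FPKM in every WT library, also passed the filter through their SppsKO libraries alone.

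The deepest falls took abundant WT transcripts down to a few FPKM or less in SppsKO. CG14850 had 0.15, 0.292, 0.149 and 0 FPKM in SppsKO, against 275, 393 and 865 FPKM in WT (log2 difference −8.64 ± 0.39, limma adjusted p = 1.67e-04). The non-coding RNA gene CR40469 had 1.07, 1.25, 1.05 and 1.28 FPKM in SppsKO, against 956, 649 and 1002 FPKM in WT (−8.63 ± 0.15, adjusted p = 3.39e-07). In neither gene did any SppsKO library come near the WT range. CG11300 had 3.91, 2.49, 4.04 and 0 FPKM in SppsKO, against 271, 399 and 1041 FPKM in WT (−7.31 ± 0.78, adjusted p = 0.00602). CG32198 had 0.76, 0.564, 3.02 and 0.163 FPKM in SppsKO, against 219, 192 and 502 FPKM in WT (−7.19 ± 0.55, adjusted p = 0.00173). The gene nol had 0.839, 0.673, 0.886 and 0.681 FPKM in SppsKO, against 46.4, 68.7 and 84.1 FPKM in WT (−5.21 ± 0.18, adjusted p = 7.50e-06), a call lost in the fit of all 10 libraries.

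Many of these falls had a wide spread in WT, with WT 3, the shallowest library, at the top. WT 3 was the highest WT library in 28 of the 38 genes that fell by 2 or more, in 47.5% of all called falls and in 39.2% of all tested genes. Without WT 3 the number of called falls was 362, against 294 without WT 1 and 419 without WT 2. Leaving out 1 SppsKO library gave 236 (SppsKO 2) to 453 (SppsKO 4). CG34278 averaged 0.393 ± 0.295 FPKM in SppsKO and 105 ± 81.1 FPKM in WT (log2 difference −6.01 ± 0.49, limma adjusted p = 0.00172), and CG42779 averaged 1.16 ± 0.822 FPKM in SppsKO and 50.9 ± 34.4 FPKM in WT (−4.43 ± 0.56, adjusted p = 0.009). In 4 further genes the call was lost when 1 library was left out. CG43182 (−5.05 ± 0.86) was not called without WT 1 or any 1 of SppsKO 1 to 4, with an adjusted p of up to 0.0918. CG17362, at 6.44 ± 4.35 FPKM in SppsKO and 221 ± 135 FPKM in WT, was not called without WT 2, WT 3, SppsKO 1 or SppsKO 2 (up to an adjusted p of 0.0644), and CG17134 (−4.75 ± 0.78) without any WT library or SppsKO 1 or 2 (up to an adjusted p of 0.0839). CG18649 (−4.48 ± 0.65) was not called without WT 2, SppsKO 1 or SppsKO 2, with an adjusted p of up to 0.0602.

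Several deep falls also came in runs of neighbours. Of the 725 called genes that could be placed in gene order, 152 (21%) lay next to at least 1 other called gene of the same direction. Across all tested genes 3.29% were called higher and 4.43% lower. Whether the 21% exceeds what random placement would give was not tested. The longest run, 5 tested genes on chromosome arm 3R, was CG14850, CG14851, CG8087, CG14852 and CG31313. CG14851 was listed at 0 in all SppsKO libraries, against 2.02, 2.96 and 3.1 FPKM in WT (limma adjusted p = 1.03e-04). CG8087 had 0.0663, 0.0773, 0.461 and 0 FPKM in SppsKO, against 17.9, 18.4 and 19.7 FPKM in WT (log2 difference −4.11 ± 0.14, adjusted p = 2.03e-06), and CG14852 had 0, 0.117, 0.149 and 0.0592 FPKM in SppsKO, against 6.29, 6.66 and 6.34 FPKM in WT (−2.78 ± 0.09, adjusted p = 1.97e-06). Unlike CG14850, these 2 genes varied little among WT libraries. The last gene, CG31313, averaged 2.65 ± 1.03 FPKM in SppsKO and 11.1 ± 5.05 FPKM in WT (adjusted p = 0.0295). It lost its call without WT 1, SppsKO 1, SppsKO 2 or SppsKO 3, with an adjusted p of up to 0.0918.

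A run on chromosome arm 2R held the P450 genes Cyp4p2 and Cyp4p1. Cyp4p2 had 0.0527, 0.0461, 0.0526 and 0.295 FPKM in SppsKO, against 83.8, 75.9 and 92.6 FPKM in WT (log2 difference −6.26 ± 0.10, limma adjusted p = 7.12e-08). Cyp4p1 had 0.196, 0.164, 0.14 and 0.331 FPKM in SppsKO, against 15.1, 14.1 and 15.8 FPKM in WT (−3.73 ± 0.09, adjusted p = 2.74e-07). The adjacent gene hig (hikaru genki, a secreted synaptic protein) fell by a much smaller 0.43 ± 0.06 (adjusted p = 0.00555). VhaAC45, an accessory proton pump subunit that ends the run, differed by −0.14 ± 0.03 (adjusted p = 0.0423) and lost its call without any 1 of 6 libraries, SppsKO 4 being the exception (adjusted p up to 0.136). Cyp4p1 and Cyp4p2 are related in sequence, so fragments may have been shared between them.

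2 more runs of 4 fell on chromosome arm 2R. Sec31, a coat subunit of vesicles leaving the endoplasmic reticulum, had 49.4, 47.3, 48.1 and 43.8 FPKM in SppsKO, against 83.3, 81.7 and 82 FPKM in WT (log2 difference −0.79 ± 0.05, limma adjusted p = 5.79e-05). The non-coding gene CR45202 (−0.92 ± 0.07), the centriole duplication gene ana2 (−0.83 ± 0.08) and CG13751 (−0.49 ± 0.05) fell beside it. The ana2 level was 9.49 ± 0.482 FPKM in SppsKO and 17.7 ± 1.96 FPKM in WT. In the other run, CG34215 averaged 0.485 ± 0.107 FPKM in SppsKO and 7.52 ± 3.58 FPKM in WT (−2.44 ± 0.26, adjusted p = 0.00162), beside smaller falls of CG15236 (−0.57 ± 0.09), the microRNA gene mir-4976 (−0.92 ± 0.13) and CG9445 (−0.59 ± 0.11). The CG9445 call was lost after quantile normalization, and the mir-4976 call in the fit of all 10 libraries.

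**Figure D3:**
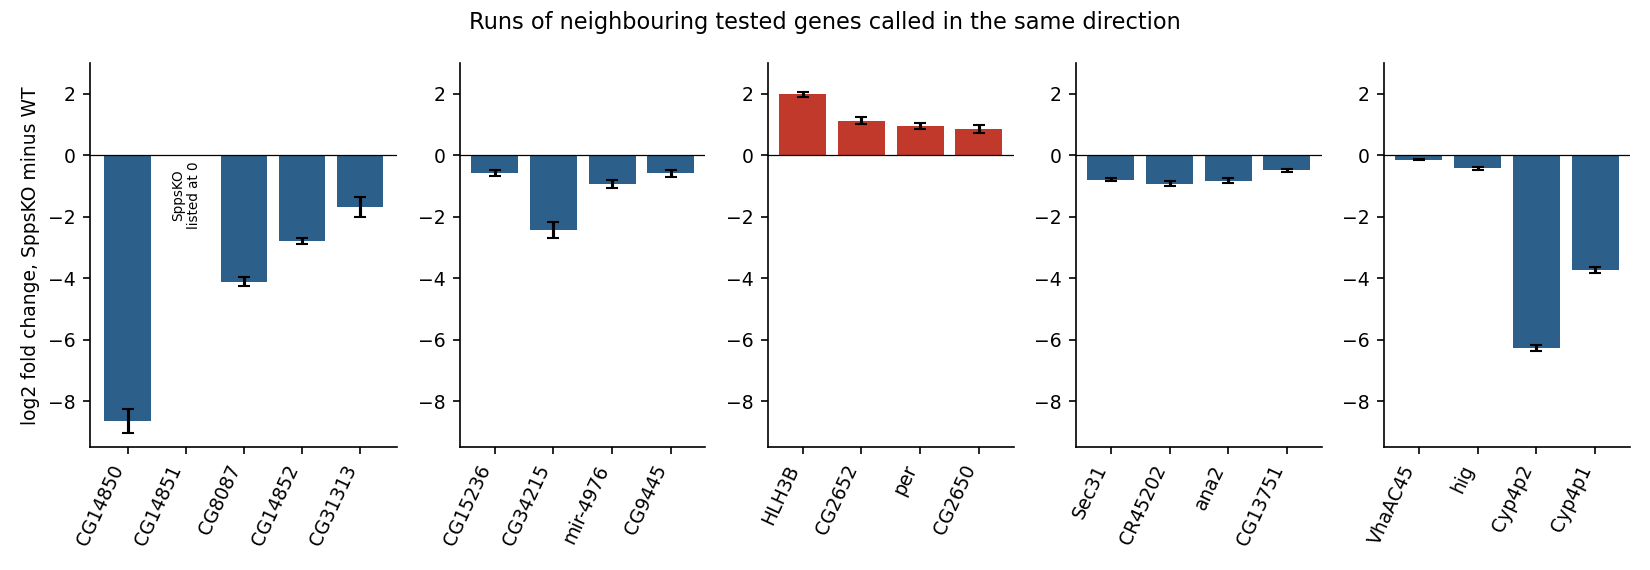
Log2 fold change ± SE (SppsKO minus WT) of the genes in the 5 longest runs of neighbouring tested genes called in one direction. The run from HLH3B to CG2650 rose by 0.85 to 1.99, the other 4 runs fell, and CG14851 has no bar because it was listed at 0 in SppsKO.

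Among tissue lists, those of blood cells held several falls. Crystal cells are the blood cells that melanize wounds, and 2 of their 4 tested genes fell, the prophenoloxidase genes PPO1 and PPO2. PPO1 had 6.38, 5.68, 6.82 and 11.2 FPKM in SppsKO, against 42.5, 31.2 and 69.7 FPKM in WT (log2 difference −2.48 ± 0.33, limma adjusted p = 0.0104). PPO2 had 9.96, 9.8, 11.3 and 17.9 FPKM in SppsKO, against 74.7, 50.1 and 93.8 FPKM in WT (−2.47 ± 0.29, adjusted p = 0.00628). The other 2 genes encode transcription factors and did not pass the test, although lz was called higher after quantile normalization (adjusted p = 0.0259). The gene lz (lozenge) averaged 5.74 ± 0.338 FPKM in SppsKO and 4.91 ± 0.283 FPKM in WT (adjusted p = 0.148), and peb (pebbled) averaged 8.1 ± 0.341 FPKM in SppsKO and 7.65 ± 0.868 FPKM in WT (adjusted p = 0.588). The summed level of the 3 defining crystal cell markers, PPO1, PPO2 and lz, was 20.3% of WT. This sum is mostly PPO1 and PPO2, so it restates their falls, and lz alone was not lower. For 2 markers of lamellocytes, the blood cells that wrap parasites, the summed level was 97.5% of WT, with overlapping libraries. In bulk tissue, fewer cells of a type and less RNA per cell cannot be told apart.

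Of 14 tested plasmatocyte genes, the phagocytic blood cells, 4 fell (28.6%, against 4.43% of all tested genes) and none rose. Their median was −0.77, against 0.002 over all tested genes. The type IV collagen genes Cg25C and vkg had 14.4, 15.9, 15.6 and 18.5 FPKM and 8.85, 9.5, 9.39 and 11.2 FPKM in SppsKO, against 29.5, 27.2 and 33.7 FPKM and 17.5, 16 and 20.8 FPKM in WT. They fell by 0.86 ± 0.09 and 0.83 ± 0.10 (limma adjusted p = 0.00133 and 0.00237). The matrix peroxidase gene Pxn averaged 12.3 ± 1.24 FPKM in SppsKO and 18.2 ± 2.05 FPKM in WT (adjusted p = 0.012). Hml (hemolectin) averaged 2.53 ± 0.584 FPKM in SppsKO and 7.94 ± 3.75 FPKM in WT, and its call (adjusted p = 0.0452) was lost without WT 1 or any 1 of the SppsKO libraries, with an adjusted p of up to 0.128. Nplp2 varied most, with 4.62, 4.02, 6.84 and 13.1 FPKM in SppsKO, against 98.4, 20.7 and 130.2 FPKM in WT (adjusted p = 0.0714). The receptor gene NimC1 had 1.45, 1.72, 1.51 and 1.98 FPKM in SppsKO, against 1.01, 0.868 and 1.27 FPKM in WT (adjusted p = 0.0872, and 0.0442 after quantile normalization), so not all markers of these cells stood lower. The summed level of 11 defining hemocyte markers was 97.7 to 154 FPKM in SppsKO and 189.7 to 357 FPKM in WT. That sum includes the 4 called genes and the variable Nplp2, which averaged 7.15 FPKM in SppsKO and 83.1 FPKM in WT.

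Other immune families held falls and 1 rise. Of 14 tested Nimrod and Tep genes, which serve phagocytosis and opsonization, 4 fell (28.6%, against 4.43% of all tested genes) and none rose. In families this small, 1 call moves the share by several points. NimB4 had 2.93, 2.96, 3.1 and 4.2 FPKM in SppsKO, against 8.96, 11.2 and 9.91 FPKM in WT (log2 difference −1.37 ± 0.12, limma adjusted p = 4.04e-04). NimB5 fell by 0.99 ± 0.15 and the thioester protein gene Tep2 by 0.50 ± 0.09. Among serpins, protease inhibitors of the blood, 2 of 14 fell (14.3%). Their number was 1 without WT 1, WT 2, SppsKO 1, SppsKO 2 or SppsKO 3, and 4 without SppsKO 4. Spn47C averaged 1.41 ± 0.323 FPKM in SppsKO and 7.75 ± 1.67 FPKM in WT (−1.85 ± 0.15, adjusted p = 3.12e-04). The peptidoglycan receptor gene PGRP-LC, 1 of 2 falls among 8 tested genes of its family, fell by 0.55 ± 0.10 (limma adjusted p = 0.0137, and 0.0504 without SppsKO 2). Antimicrobial peptide genes moved both ways, with 1 rise and 1 fall among 11 tested (18.2%, against 7.71% of all tested genes). IM18 had 72.6, 77.1, 60.6 and 114 FPKM in SppsKO, against 21.7, 20.2 and 28.8 FPKM in WT (1.72 ± 0.23, adjusted p = 0.00949). The cecropin gene CecC averaged 3.23 ± 2.3 FPKM in SppsKO and 15.2 ± 1.16 FPKM in WT (−2.10 ± 0.44, adjusted p = 0.0442), and was not called without any 1 WT library, SppsKO 2 or SppsKO 3 (up to 0.123). Without SppsKO 1, 2 peptide genes were called lower.

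Basement membrane components, which blood cells and fat body supply to other tissues, gave 7 falls and no rise among 19 tested genes. The falls made up 36.8%, against 4.43% of all tested genes. Every SppsKO library lay below every WT library in 11 of 19, against 11.9% of tested genes. Cg25C, vkg and Pxn belong to this list as well as to the plasmatocyte list. The integrin ligand gene Tig (tiggrin) averaged 4.16 ± 0.246 FPKM in SppsKO and 7.11 ± 0.609 FPKM in WT (log2 difference −0.65 ± 0.08, limma adjusted p = 0.00193). Smaller falls were seen in Timp, a metalloprotease inhibitor (−0.37 ± 0.07), and in the laminin genes LanA (−0.30 ± 0.06) and LanB1 (−0.24 ± 0.05). Their calls each rested on single libraries, with an adjusted p of 0.0516 for Timp without WT 1, of 0.0504 for LanA without SppsKO 2, and of up to 0.0813 for LanB1 without SppsKO 1 or 2. Summed hemocyte markers, which include Cg25C, vkg and Pxn themselves, stood at 42.9% of WT in the same libraries. The part of blood cells in these falls was not tested.

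Muscle genes had a median of −0.63, with 19 of 20 tested genes below 0 and every SppsKO library below every WT library in 16, against 11.9% of tested genes. 5 were called (25%), all lower, against 4.43% of all tested genes. The troponin C gene TpnC47D had 3.06, 2.77, 3.57 and 2.52 FPKM in SppsKO, against 9.67, 9.45 and 8.81 FPKM in WT (log2 difference −1.38 ± 0.10, limma adjusted p = 1.26e-04). The muscle LIM protein gene Mlp60A averaged 13 ± 3.21 FPKM in SppsKO and 40.5 ± 7.68 FPKM in WT, and the myosin light chain gene Mlc2 averaged 17.8 ± 4.06 FPKM in SppsKO and 45 ± 2.25 FPKM in WT. The myosin genes Mhc (−1.70 ± 0.28) and Mlc1 (−1.12 ± 0.19) were also called, at adjusted p = 0.0142 and 0.0174, but not without WT 1 or WT 3 and, for Mlc1, not without WT 2 (adjusted p up to 0.0545 and 0.0647). SppsKO 4 was the lowest library throughout these genes. Actin gene Act57B had 77.3, 73.8, 75.3 and 34.4 FPKM in SppsKO, against 119, 126 and 120.1 FPKM in WT (adjusted p = 0.133). The number called was 12 without SppsKO 4, 3 without WT 1 or WT 3, and 0 in the fit of all 10 libraries.

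Markers of salivary gland and fat body varied widely among libraries of both groups. Summed fat body markers were 1368, 1324, 2087 and 2087 FPKM in SppsKO, against 1944, 5422 and 1258 FPKM in WT, and the groups overlapped. Summed salivary gland markers were 445, 282, 3022 and 1319 FPKM in SppsKO, against 814, 6336 and 2746 FPKM in WT, also with overlap. The glue gene Sgs3 had 27.2, 17.4, 355 and 108 FPKM in SppsKO, against 89, 726 and 316 FPKM in WT (limma adjusted p = 0.417). Of 15 tested salivary genes 2 were called, both lower, the closely similar new glue genes ng2 and ng1. The ng2 level was 3.32 ± 1.27 FPKM in SppsKO and 10.8 ± 1.04 FPKM in WT (adjusted p = 0.00873), and the ng1 call (adjusted p = 0.0399) was lost without WT 1, WT 2 or any 1 of SppsKO 1 to 4 (up to 0.126). Both calls were lost in the fit of all 10 libraries. The number of salivary genes called was 4 without WT 1, and 1 without WT 2, SppsKO 1, SppsKO 2 or SppsKO 4. Among 14 fat body genes 3 were called lower. The number called lower was 1 without WT 2, WT 3, SppsKO 1, SppsKO 2 or SppsKO 3, and without WT 2 another 1 was called higher. Lpin (Lipin, of fat synthesis) was the firmest, with 37.2, 36.4, 35.2 and 32.3 FPKM in SppsKO, against 48.4, 47.4 and 50.5 FPKM in WT (−0.46 ± 0.05, adjusted p = 0.00197). Gut markers summed to 3.09 to 3.99 FPKM in SppsKO and 4.56 to 24.5 FPKM in WT. No gut gene of 7 and no Jonah or trypsin protease gene of 13 was called by limma, none of either group passing an unadjusted p under 0.05.

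**Figure D4:**
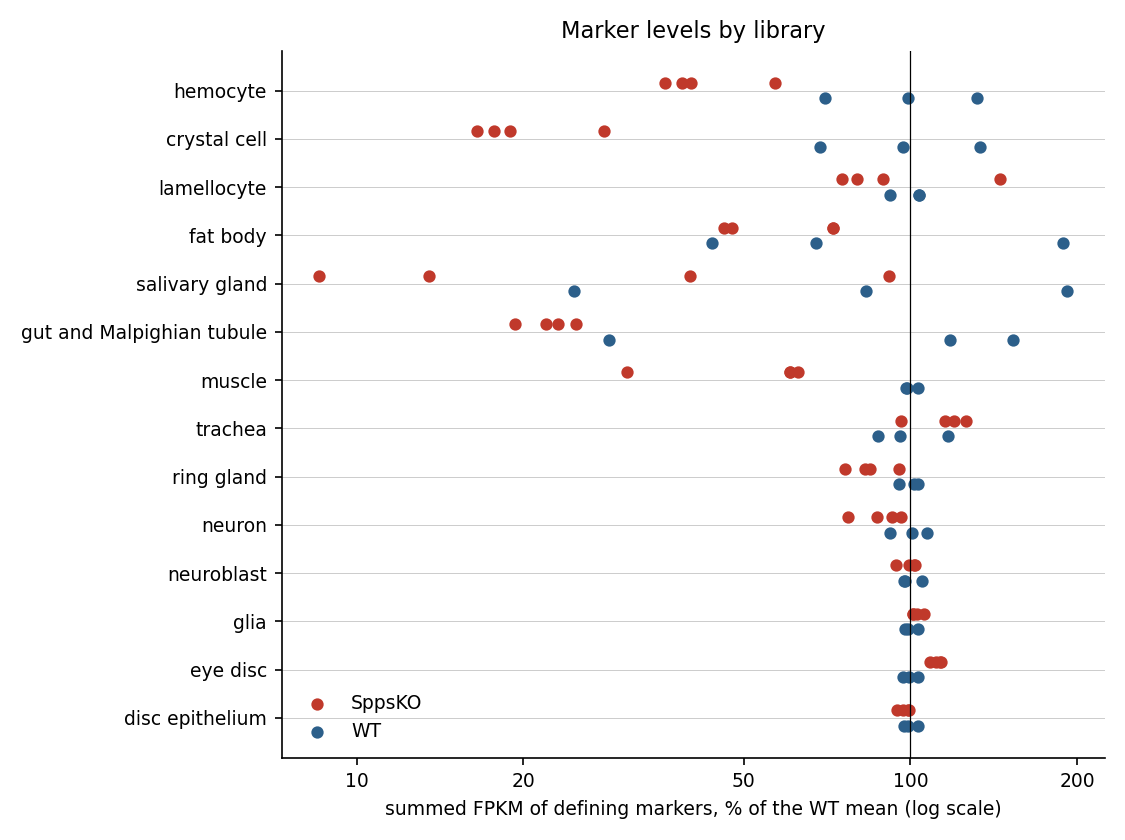
Summed FPKM of defining markers in each library as a percentage of the WT mean, on a log scale, for 14 cell types. Crystal cell, hemocyte, gut and muscle markers lie below WT in every SppsKO library, while disc epithelium, neuroblast and glia markers lie close to 100%.

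The ring gland makes the steroid ecdysone, and 11 of its 13 tested genes were below 0, of which 2 were called. The ecdysone synthesis gene sro (shroud) had 9.29, 9.79, 8.64 and 11 FPKM in SppsKO, against 15.8, 18.8 and 20.9 FPKM in WT (log2 difference −0.87 ± 0.10, limma adjusted p = 0.00204). For phm (phantom), the P450 that hydroxylates the steroid precursor, the levels were 81.6 ± 9.78 FPKM in SppsKO and 106 ± 6.5 FPKM in WT (adjusted p = 0.0453). The phm call was lost without any 1 of 6 libraries, SppsKO 4 being the exception (up to 0.135). The list then held 1 call without WT 2, WT 3, SppsKO 1, SppsKO 2 or SppsKO 3, and 4 lower and 1 higher without SppsKO 4. Summed ring gland markers were 273 to 342 FPKM in SppsKO and 342 to 371 FPKM in WT. No ecdysone response gene of 24 was called by limma, with 3 at an unadjusted p under 0.05.

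In the nervous system, general neuronal genes had a median of −0.18, with 21 of 28 tested genes below 0 and none called by limma (9 at an unadjusted p under 0.05). The dpr and DIP genes, whose cell-surface products pair synaptic partners, were below 0 in 19 of 20 tested members, with 2 called lower, dpr3 (−0.44 ± 0.10, limma adjusted p = 0.0397) and dpr14 (−0.37 ± 0.09, adjusted p = 0.0407). Neither was called without WT 1, WT 3 or any 1 of the SppsKO libraries (up to 0.127 and 0.123), with no filter or after quantile normalization, and 3 genes of the family were called lower without WT 2. Calls that stayed without any 1 library included those of the acetylcholine receptor subunit gene nAChRbeta3 and the neuropeptide gene sNPF. Each was the only call in its list, among 10 nicotinic receptor genes (10%) and 26 neuropeptide genes (3.85%), against 7.71% of all tested genes. The sNPF call was lost with a replicate block. The nAChRbeta3 transcript had 5.73, 5.86, 6.87 and 9.69 FPKM in SppsKO, against 15.8, 16.7 and 14.3 FPKM in WT (log2 difference −1.07 ± 0.16, adjusted p = 0.00811). For sNPF the levels were 4.46 ± 0.116 FPKM in SppsKO and 6.93 ± 0.826 FPKM in WT (−0.53 ± 0.08, adjusted p = 0.0072). Among 21 neuroblast genes 1 was called, pon (partner of numb, needed for asymmetric division), at 35.8 ± 1.44 FPKM in SppsKO and 29.7 ± 0.748 FPKM in WT. Of 17 tested glial genes 1 rose and 1 fell, with a median of 0.00, and 3 fell without WT 2. The glial determinant gcm averaged 9.42 ± 0.562 FPKM in SppsKO and 6.91 ± 0.391 FPKM in WT (0.40 ± 0.06, adjusted p = 0.0091). The glutamate transporter gene Eaat1 averaged 15.4 ± 0.933 FPKM in SppsKO and 18.7 ± 1.22 FPKM in WT (−0.27 ± 0.06, adjusted p = 0.039), and was not called without WT 1, WT 3, SppsKO 1, SppsKO 2 or SppsKO 3 (up to 0.12).

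Disc gene lists had more calls than the 7.71% of all tested genes, with differences between −0.35 and 0.75 on the log2 scale. Of 18 tested eye disc genes, 3 rose and 1 fell (22.2%), the median was 0.03, and summed eye disc markers were 95.5 to 100.0 FPKM in SppsKO and 85.5 to 91.1 FPKM in WT. The proneural gene ato (atonal) had 21.2, 21.4, 20.5 and 22.6 FPKM in SppsKO, against 17.2, 17.1 and 17.8 FPKM in WT (log2 difference 0.29 ± 0.04, limma adjusted p = 0.00643). The retinal gene dan rose by 0.35 ± 0.06 (adjusted p = 0.00895). The photoreceptor adhesion gene chp (0.25 ± 0.06, adjusted p = 0.0402) was the other rise and the homeobox gene ro (−0.35 ± 0.08, adjusted p = 0.045) the fall. The call of ro was lost without any 1 library (up to 0.135). The number of eye genes called higher was 5 without WT 3 and 2 without any other single library, and no eye gene was called lower once a library was left out. Of 40 wing and leg disc patterning genes, 4 rose and 1 fell (12.5%), with a median of 0.04. The POU factor gene pdm2 had 10.1, 9.47, 9.12 and 8.59 FPKM in SppsKO, against 5.12, 5.68 and 4.64 FPKM in WT (0.75 ± 0.08, adjusted p = 0.0011). The Pax gene gsb averaged 8.72 ± 1.02 FPKM in SppsKO and 5.24 ± 0.269 FPKM in WT, and the T-box gene Doc3 averaged 12.9 ± 0.494 FPKM in SppsKO and 9.76 ± 0.823 FPKM in WT. The Iroquois gene caup (0.28 ± 0.07, adjusted p = 0.0421) lost its call without WT 1 or any 1 of the SppsKO libraries (adjusted p up to 0.116). The dorsal wing selector ap (apterous) fell by 0.32 ± 0.05 (adjusted p = 0.0052).

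Sp and KLF, Hox, Polycomb group and trithorax group genes were called at 11.1%, 0%, 3.57% and 0%, against 7.71% of all tested genes. With 28 tested members or fewer, 1 call moves such a share by several points. Of 9 tested Sp and KLF genes Spps alone was called. None of 7 tested Hox genes was called by limma (1 at an unadjusted p under 0.05), with differences from −0.25 to 0.15. Among 28 tested Polycomb group genes 1 was called, Dsp1, a DNA-binding HMG protein gene, at 109 ± 0.978 FPKM in SppsKO and 126 ± 5.41 FPKM in WT (log2 difference −0.21 ± 0.04, limma adjusted p = 0.0174). That call was lost without WT 1, SppsKO 2 or SppsKO 3, with an adjusted p of up to 0.0672. Among 28 trithorax group genes none was (3 at an unadjusted p under 0.05), with differences from −0.12 to 0.14. In signalling lists, 1 of 14 Hedgehog genes rose, with 12 of 14 above 0, and 1 of 16 Hippo genes fell. The Hedgehog co-receptor gene ihog averaged 86.6 ± 1.46 FPKM in SppsKO and 76.2 ± 3.07 FPKM in WT (0.18 ± 0.04, adjusted p = 0.0299), and was not called without WT 1, WT 3, SppsKO 1, SppsKO 2 or SppsKO 3 (up to 0.0916). The Hippo pathway kinase gene wts averaged 16.9 ± 1.27 FPKM in SppsKO and 21.2 ± 0.557 FPKM in WT (−0.32 ± 0.06, adjusted p = 0.0197), and was not called without WT 1, WT 2 or SppsKO 3 (up to 0.0732). No gene was called by limma among 20 insulin and TOR, 12 JAK/STAT, 25 JNK and cell death, 14 EGF receptor, 18 Wnt, 15 Dpp and 34 cell cycle genes. Those 7 lists held 0, 1, 2, 2, 3, 0 and 2 genes at an unadjusted p under 0.05, in that order. Across all tested genes, 2293 of 9514 passed that threshold.

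**Figure D5:**
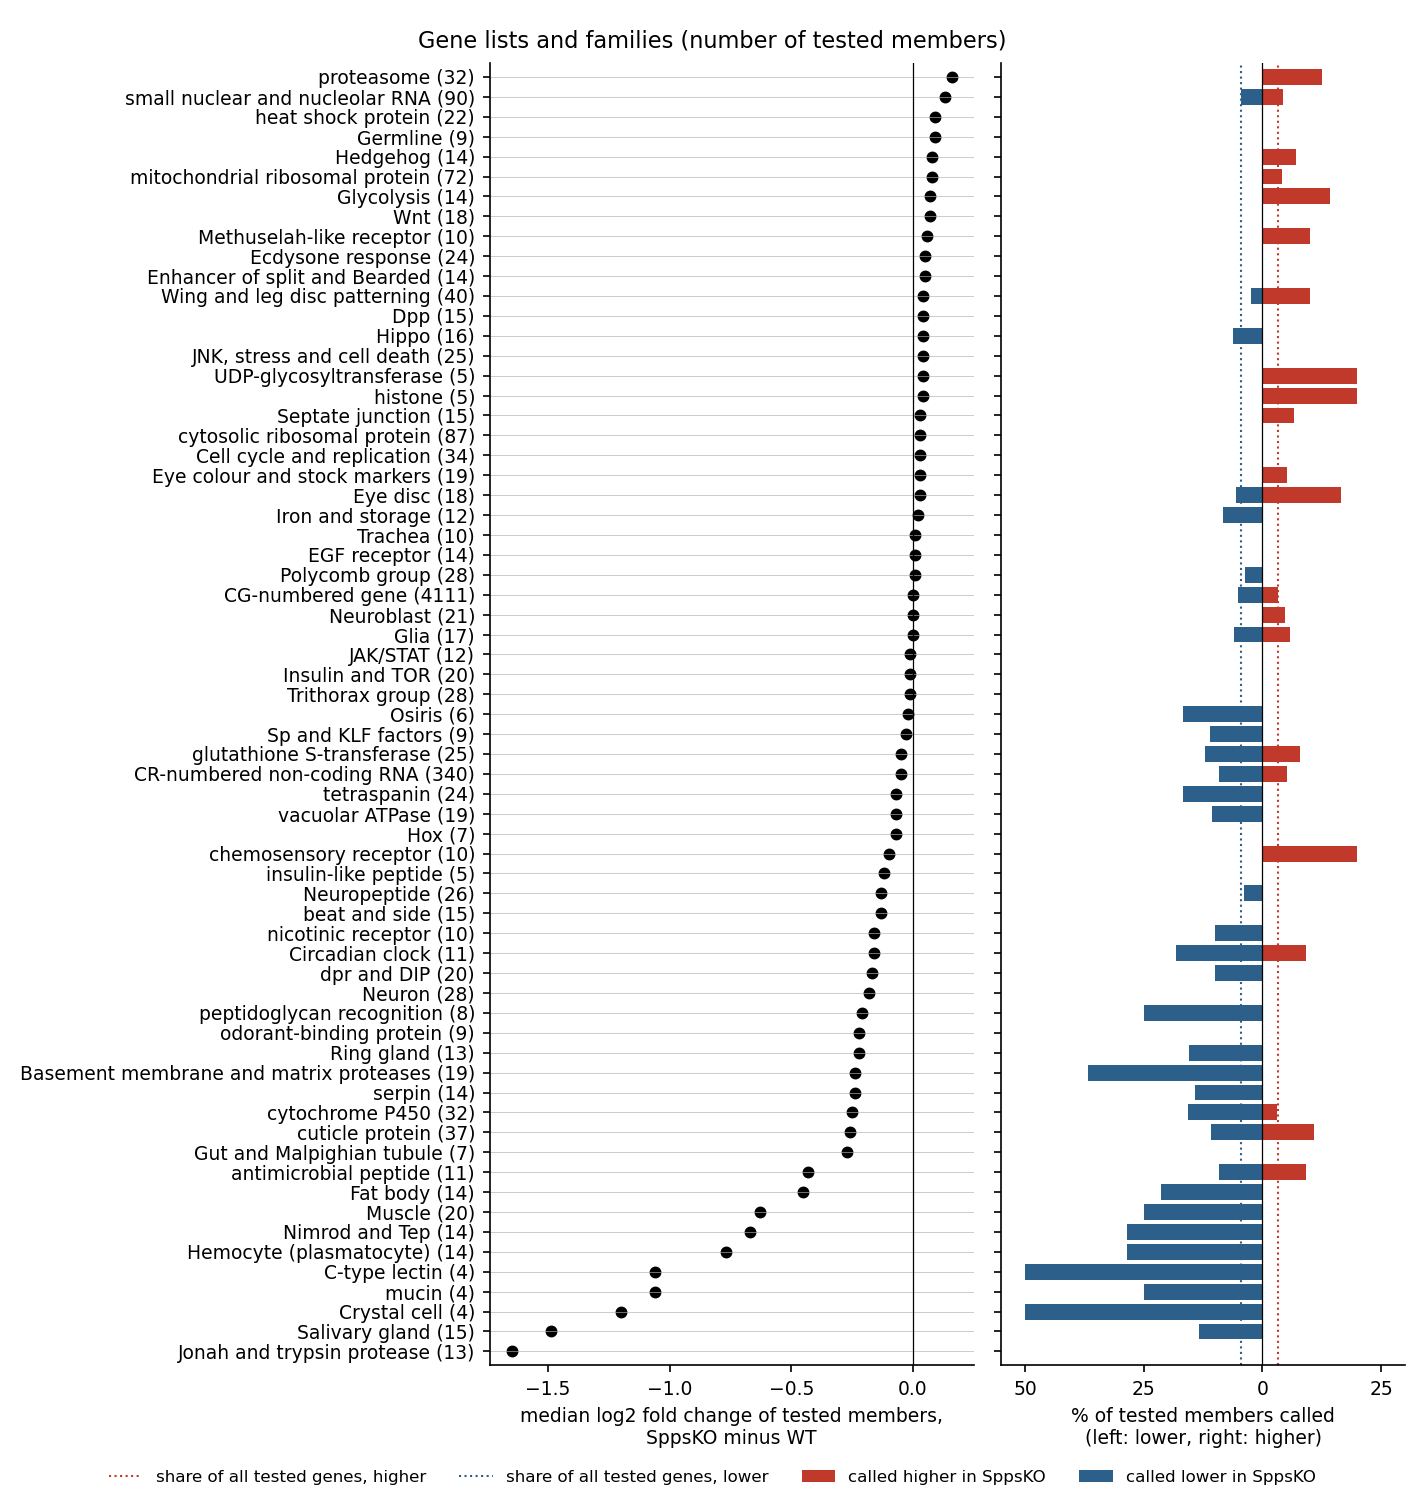
Median log2 fold change of the tested members of each gene list or family with 4 or more of them (left), and the percentage of members called lower or higher (right), with dotted lines at 4.43% and 3.29% for all tested genes. The lowest medians are those of Jonah and trypsin proteases (−1.65), with no call, and salivary gland (−1.49). Blood cell and muscle lists also have low medians with calls to the lower side. The matrix list (−0.24) has a median like those of cuticle proteins (−0.26) and P450 genes (−0.25). The proteasome has the highest median and calls to the higher side.

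The proteasome, the complex that degrades ubiquitin-tagged proteins, moved little but evenly. Of 32 tested subunit genes 31 were above 0, and in 24 every SppsKO library was above every WT library, against 12.4% of tested genes. The median difference was 0.16 on the log2 scale, and 4 genes were called (12.5%), all higher, against 3.29% of all tested genes. Prosbeta6, a core subunit, had 304, 309.9, 309 and 318 FPKM in SppsKO, against 244, 247 and 225 FPKM in WT (log2 difference 0.38 ± 0.04, limma adjusted p = 0.00175). The number called was 7 without WT 2, 2 without WT 3, and 1 without any 1 of the other 5 libraries. Of 72 mitochondrial ribosomal protein genes 57 were above 0. Only 3 were called (4.17%), all higher, near the 3.29% of all tested genes called higher, and 1 with a replicate block. These included mRpL48 at 48.6 ± 2.08 FPKM in SppsKO and 39.5 ± 1.81 FPKM in WT, and mRpS18A at 77.4 ± 2.71 FPKM in SppsKO and 58.9 ± 5.96 FPKM in WT. The glycolytic enzyme gene Tpi averaged 267 ± 9.14 FPKM in SppsKO and 214 ± 15.7 FPKM in WT (0.32 ± 0.06, adjusted p = 0.0127). None of 87 cytosolic ribosomal protein genes and none of 22 heat shock protein genes was called by limma, with 3 of each at an unadjusted p under 0.05.

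Detoxifying enzymes moved both ways, with 18.8% of tested P450 and 20% of tested glutathione S-transferase genes called, against 7.71% of all tested genes. Of 32 tested P450 genes 1 rose and 5 fell, and Cyp9h1 averaged 0.665 ± 0.216 FPKM in SppsKO and 2.14 ± 0.108 FPKM in WT (log2 difference −0.92 ± 0.12, limma adjusted p = 0.00313). The P450 falls numbered 3 without WT 1, SppsKO 1 or SppsKO 2. Of 25 glutathione S-transferase genes 2 rose and 3 fell, against 4 that rose and 1 that fell after quantile normalization. GstD9 had 43, 42, 39.5 and 47.4 FPKM in SppsKO, against 18.3, 17 and 21.8 FPKM in WT (1.14 ± 0.09, adjusted p = 2.49e-04), and GstE8 rose by 1.12 ± 0.10. GstE1 went the other way, with 12.3, 15.5, 14.6 and 15.6 FPKM in SppsKO, against 38, 34.9 and 38.9 FPKM in WT (−1.31 ± 0.08, adjusted p = 8.69e-05). GstE1 was the single glutathione S-transferase gene called lower without SppsKO 1, 2 or 3 or WT 2.

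Cuticle proteins gave 4 rises and 4 falls among 37 tested genes (21.6%, against 7.71% of all tested genes). Without SppsKO 1 there were 3 rises and 2 falls. The chitin-binding protein gene obst-A had 183, 168, 176 and 178 FPKM in SppsKO, against 108, 122 and 108 FPKM in WT (log2 difference 0.64 ± 0.05, limma adjusted p = 3.43e-04). Cpr97Ea averaged 4.62 ± 0.661 FPKM in SppsKO and 1.93 ± 0.182 FPKM in WT (0.93 ± 0.11, adjusted p = 0.00183). Cpr47Ec (−0.76 ± 0.12) and Cpr66Cb (−0.78 ± 0.13) fell, each at under 2 FPKM in both groups.

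A few further named genes fell clearly outside these groups. Crg-1, a forkhead gene named for its circadian regulation, had 0.359, 0.442, 0.537 and 0.4 FPKM in SppsKO, against 5.55, 5.25 and 6.83 FPKM in WT (log2 difference −2.26 ± 0.11, limma adjusted p = 1.61e-05). The sodium channel subunit gene ppk13 had 1.8, 1.93, 1.04 and 2.19 FPKM in SppsKO, against 11.7, 7.95 and 11.6 FPKM in WT (−2.06 ± 0.18, adjusted p = 4.55e-04). The tetraspanin gene Tsp42Ea averaged 62.3 ± 7.52 FPKM in SppsKO and 92.2 ± 3.66 FPKM in WT (−0.57 ± 0.09, adjusted p = 0.009), as 1 of 4 falls among 24 tetraspanins. The proton pump subunit gene VhaSFD had 59, 56.6, 56.6 and 56.1 FPKM in SppsKO, against 78.4, 85.5 and 85.9 FPKM in WT (−0.54 ± 0.04, adjusted p = 3.12e-04).

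Genes without a name were called at about the share of all tested genes where they have a CG number. Of 4111 such genes, 135 rose and 213 fell (8.47%, against 7.71% of all tested genes). After quantile normalization, the CG-numbered gene counts were 248 higher and 166 lower. Of 340 tested non-coding genes with a CR number, 18 rose and 31 fell (14.4%). The CR genes gave 27 rises and 23 falls after quantile normalization. CR43242 had 15.7, 15.3, 15.4 and 17.2 FPKM in SppsKO, against 5.99, 4.45 and 4.5 FPKM in WT (log2 difference 1.51 ± 0.10, limma adjusted p = 7.84e-05). CR45734 averaged 2.4 ± 0.197 FPKM in SppsKO and 0.248 ± 0.0861 FPKM in WT, and CR44043 averaged 0.134 ± 0.0397 FPKM in SppsKO and 2.42 ± 0.109 FPKM in WT. Among coding genes, CG31522 had 13.2, 13.3, 13.8 and 13.1 FPKM in SppsKO, against 32.1, 34.5 and 30.8 FPKM in WT (−1.22 ± 0.05, adjusted p = 7.11e-06), and CG31436 averaged 1.65 ± 0.106 FPKM in SppsKO and 9.13 ± 1.02 FPKM in WT. Just inside the filter on low values lay CG7763, at 0.902 FPKM in SppsKO and 1.09 FPKM in WT, and just outside lay CG15005, at 0.969 FPKM in SppsKO and 0.998 FPKM in WT. CG8560, also just outside, had a mean of 0.753 FPKM in SppsKO and 20.4 FPKM in WT, and was therefore not tested.

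The 3 PhoKO libraries, from larvae without zygotic product of the Polycomb recruiter pho, allow SppsKO to be set against another mutant. The difference in means does not use WT levels. The SE and p-values do draw on WT, since the fit held all 10 libraries. The tested genes were those filtered on SppsKO and WT. Across all tested genes 14.3% differed between SppsKO and PhoKO. The genes below had been chosen on the same SppsKO libraries, so these values describe the genes and are no independent test. HLH3B averaged 13.1 ± 0.324 FPKM in SppsKO and 2.02 ± 0.533 FPKM in PhoKO (SD, n = 4 and 3), per averaged 2.86 ± 0.314 FPKM in SppsKO and 0.648 ± 0.0938 FPKM in PhoKO, and subdued averaged 40.8 ± 5.92 FPKM in SppsKO and 9.96 ± 0.558 FPKM in PhoKO. For ry the levels were 6.51 ± 0.565 FPKM in SppsKO and 1.59 ± 0.0105 FPKM in PhoKO, and for cav 7.41 ± 0.64 FPKM in SppsKO and 20.4 ± 0.862 FPKM in PhoKO. The limma adjusted p-values of these 5 differences ran from 3.57e-06 (ry) to 5.97e-05 (per). The WT means of the 5 genes were 2.54, 0.997, 10.1, 1.79 and 20.2 FPKM in the same order. Not called between the mutants were mthl8 (log2 difference 0.20 ± 0.07, adjusted p = 0.0859), CG18278 (−0.20 ± 0.11, adjusted p = 0.262) and CR40469 (0.23 ± 0.15, adjusted p = 0.33). Their levels were, for mthl8, 10.8 ± 0.669 FPKM in SppsKO and 9.27 ± 0.552 FPKM in PhoKO, for CG18278, 2.82 ± 0.377 FPKM in SppsKO and 3.38 ± 0.533 FPKM in PhoKO, and for CR40469, 1.16 ± 0.121 FPKM in SppsKO and 0.854 ± 0.26 FPKM in PhoKO. CG31676 averaged 41.3 ± 1.77 FPKM in SppsKO and 15.4 ± 4.08 FPKM in PhoKO, against 6.46 ± 0.249 FPKM in WT.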

How the data were processed

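Paired-end RNA-Seq of poly(A) RNA used pooled, strand-keeping libraries, per the labels' protocols. The authors deposited FPKM per gene, normalized across libraries. Per the submitters' processing notes the series used TopHat2 2.1.1, Cufflinks, Cuffnorm, HTSeq and DESeq2, among other tools, with the builds dm3 and BDGP5. The tool behind the FPKM, the annotation and the strand setting were not given in the sources used here, so overlapping genes and near-identical copies may share fragments. FPKM is not a count, so depth is unknown beyond the relative steps of low values.

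A gene was tested at 1 FPKM or more in at least 3 of the 7 SppsKO and WT libraries. Genes under 1 FPKM in every library of 1 group passed this filter through the other group alone. Log2(FPKM + 1) was fitted with limma 3.58.1 in R 4.3.3 (eBayes with trend and robust, no covariate), Benjamini-Hochberg adjustment ran over all 9514 genes, and calls were made at an adjusted p under 0.05. On this scale, fold changes understate the change of low genes. On simulated data the fit recovered 75% of genes changed by 0.5 and 93% of genes changed by 1, with 4 false calls of 172. The simulated noise was independent between genes and equal in both groups. In the real data whole libraries such as SppsKO 4 and WT 3 stood apart, so these rates may not hold for them. Gene order and names came from a RefSeq table of a later assembly (16299 symbols matched). Promoter sequences were not analysed here.

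The members and the 69 gene lists and families were chosen with earlier results of these data known. The text names Spps, its neighbours, the 12 largest rises and falls among called genes without overlap and with a mean of 2 FPKM or more, called list members in order of adjusted p, and genes in runs. The alternatives were pseudocounts of 0.1 and 5, no filter, a mean of 5 FPKM, median-of-ratios and quantile scaling, all 10 libraries, array weights, eBayes without trend and robust, a replicate block, and each library left out. The fit of SppsKO against PhoKO, in all 10 libraries, was added after seeing the data. P450 and Notch target symbols that matched by spelling alone (Cyp1, Brd8) were taken out of their families after the data were seen.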

Additional observations from a re-analysis of the deposited data

Results flagged for a closer look

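Among 122 genes examined in the 4 SppsKO libraries, 9 had 1 library whose gap to the next was wider, as a share of the group's range, than Dixon's critical value, where chance flags about 1 group in 20. SppsKO 4 was the library apart in 5 of them. It was the lowest for the muscle genes Act57B (34.4 FPKM) and Mlc1 (9.02 FPKM) and for ana2 (8.77 FPKM), and the highest for Cyp4p2 (0.295 FPKM) and NimB4 (4.2 FPKM). SppsKO 3 was the highest for CG8087 (0.461 FPKM) and ng1 (1.11 FPKM) and the lowest for CG13751 (145 FPKM). SppsKO 1 was the highest for CG31436 (1.8 FPKM). Every one of these values still lay below all WT libraries of its gene.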

How the results depend on the processing

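The 734 calls (313 higher, 421 lower) became 473 (252 lower) with a mean of 5 FPKM or more, 2132 (964 higher, 1168 lower) with array weights and 336 (115 higher, 221 lower) with a replicate block, and 537 genes were called higher after quantile normalization. Leaving out 1 library gave 413 to 742 calls, 177 to 302 higher and 236 to 453 lower, and the Spps level ran from 7.43% to 7.88% of WT. The sources do not say whether replicate numbers mark a pairing. Same-numbered SppsKO and WT libraries correlated at 0.012, −0.353 and −0.091 in their deviations, and differently numbered ones at −0.172 to 0.254. With so few libraries these values cannot tell whether the numbers carry a shared batch. The replicate block ended 36 of the calls named here, against 17 in the fit of all 10 libraries. Leaving out SppsKO 2 ended 22, the most for any single library. No named gene changed sign under any alternative run. Of 122 named genes, 68 kept their side of the threshold under every alternative run for them, which for 34 genes with a mean under 5 FPKM leaves out that filter. The cause of the lost calls was not tested.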
